A study of Mus musculus with 28 samples.

Results

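The potassium channel genes of the mouse were taken as the protein-coding genes whose symbol starts with Kcn, without Kcnj8, Kcnj13 and Kcne2, which belong to vessels and choroid plexus. By this rule 94 genes carried the prefix and 91 were members, out of 50686 genes in the table, and they fall into 21 subfamilies by the letters after Kcn. The tissue was dorsal hippocampus of C57Bl6 mice, all male, in 28 RNA-seq libraries. After auditory fear conditioning, a task that pairs a tone with a shock, mice received vehicle (Vehicle, n = 4), Cort (n = 5), RU486 (n = 5), C108 (n = 5) or C118 (n = 5). The Basal mice (n = 4) had no conditioning and no treatment. Cort usually stands for corticosterone, the stress steroid of rodents, although the labels do not spell it out. RU486, or mifepristone, blocks the receptors for glucocorticoids and progesterone. C108 and C118 are known here by code name alone. The labels used here state neither dose nor time. No group separates conditioning from the handling and injection that went with it, so that these cannot be told apart. The labels do not say whether each library came from a separate mouse, and p-values therefore measure the spread between libraries.

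Potassium channels let potassium leave the cell, which pulls the membrane back towards rest. Voltage-gated channels (Kcna, Kcnb, Kcnc, Kcnd, Kcnh, Kcnq) are built from pore subunits that open on depolarization, and their auxiliary subunits (Kcnab, Kcnip, Kcne) set how many reach the membrane and how fast they close. Silent subunits (Kcnf, Kcng, Kcns, Kcnv) form no channel alone and join Kcnb subunits. Inward rectifiers (Kcnj) and tandem-pore leak channels (Kcnk) hold the resting potential, and calcium- or sodium-activated channels (Kcnma, Kcnn, Kcnt) follow firing. In hippocampal pyramidal cells, A-type channels built from Kcnd and from Kcna4 shape how signals travel in dendrites and axons.

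Gene counts summed to 16244993 in the shallowest library and to 20295147 in the deepest. Hippocampal markers were present in every library: Prox1, a dentate granule cell marker, had 112 to 206 CPM (gene counts scaled by library size), and Wfs1, a CA1 marker, 57.2 to 269 CPM. Some libraries stood apart in markers of brain regions. A marker score, the mean log2 CPM of a list's genes after centring each gene on all libraries, was computed for 12 thalamus and 12 neocortex genes. All 12 genes of each list were detected in every library. The neocortex score was 0.56 in the library Vehicle 16 and 0.45 in Vehicle 29 (the number is the one in the sample's title), against -0.23 and -0.03 in the other 2 Vehicle libraries and 0.13 to 0.30 in Basal. For thalamus, the highest score was that of Vehicle 16 at 2.05, followed by Vehicle 3 at 1.28 and Cort 4 at 1.27. Cort 30 had a thalamus score of 1 and Cort 11 one of 0.89. The mean thalamus score was 0.62 in Vehicle, 0.51 in Cort, -0.14 in RU486, -0.59 in C108, -0.3 in C118 and 0.02 in Basal. The summed neocortex marker level did not follow the score, at 455 to 518 CPM in Vehicle and 525 to 562 CPM in Basal. In hippocampal markers, Vehicle 16 had a CA1 score of -0.79 and Vehicle 29 a CA2 and CA3 score of -0.75 and a dentate score of -0.58, each the lowest of all 28 libraries.

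Of the 91 members, 77 had enough counts to be tested and 14 were too low to judge. The 14 were Kcna10, Kcna7, Kcne1, Kcne3, Kcnj1, Kcnj15, Kcnk15, Kcnk16, Kcnk18, Kcnk7, Kcnmb3, Kcnn4, Kcnq1 and Kcnv2, none of which had more than 12 counts in any library. Kcna7 and Kcnk16 had 0 counts in all 28 libraries. Among the 77, 8 averaged under 1 CPM (Kcne4, Kcnh4, Kcnh6, Kcnh8, Kcnj5, Kcnk5, Kcnmb1 and Kcnrg), 20 lay between 1 and 10 CPM, 35 between 10 and 100 CPM and 14 above 100 CPM. For a typical tested member, the SD within groups was 0.20 on the log2 CPM scale (median), with a range of 0.08 to 0.76. Levels of different genes are compared below as CPM per kb of exon, averaged over all 28 libraries. Exon length is that of all annotated exons of a gene joined, so the order of genes can differ from that in CPM.

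**Figure D1:**
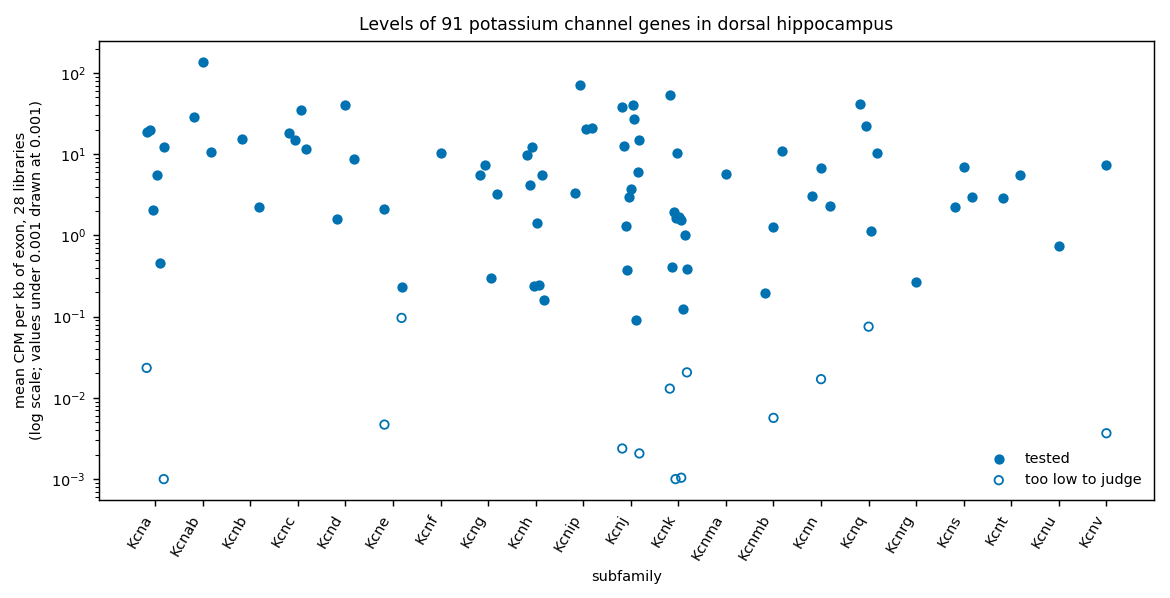
Mean CPM per kb of exon of each of the 91 genes over 28 libraries (log axis), by subfamily; filled points are tested genes and open points are those too low to judge. Tested genes span 0.0901 to 138 CPM per kb, with Kcnab2 at the top.

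The highest level of all was that of an auxiliary subunit, Kcnab2, at 138 CPM per kb. It is a cytoplasmic beta subunit of Kcna channels and made up 77.7% of its subfamily's summed level, ahead of Kcnab1 at 28.8 and Kcnab3 at 10.7 CPM per kb. Kcnip2, a calcium-binding partner of Kcnd channels, followed at 71.9 CPM per kb, with Kcnip4 at 21.1, Kcnip3 at 20.7 and Kcnip1 at 3.30 CPM per kb. The Kcne subunits were scarce, with Kcne1l highest at 2.14 CPM per kb and 2 of the 4 too low to judge.

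Among voltage-gated pore subunits, Kcnd2, the main dendritic A-type subunit, had 40.4 CPM per kb and 79.6% of its subfamily's level, against 8.67 for Kcnd3 and 1.58 for Kcnd1. Kcnq3, a subunit of the M-channels that restrain repeated firing, had 22.2 CPM per kb. Of the Kcnc genes, which serve fast-spiking neurons, Kcnc1 had 18.4, Kcnc2 15.1 and Kcnc4 11.5 CPM per kb. Of the axonal Kcna subunits, Kcna2 had 19.6, Kcna1 18.9, Kcna6 12.3 and Kcna4 5.62 CPM per kb. Kcnh3 led the 8 Kcnh genes at 12.2 CPM per kb.

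The tested silent subunits spanned a wide range. Kcnf1 had 10.4, Kcng2 7.43, Kcnv1 7.41, Kcns2 6.92 and Kcng1 5.53 CPM per kb, while Kcng4 had 3.21, Kcns3 2.98, Kcns1 2.27 and Kcng3 0.303 CPM per kb. Among inward rectifiers, Kcnj3, a G protein-gated subunit, had 40.1 CPM per kb, and Kcnj10, the rectifier of astrocytes, had 38.1 CPM per kb. Kcnj4, a strong inward rectifier of neurons, had 27.2 CPM per kb. Kcnk1 took 73.4% of the level of the leak channels, at 53.3 CPM per kb, and Kcnk2 was next at 10.4 CPM per kb. The large-conductance calcium-activated channel gene Kcnma1 had 5.63 CPM per kb, and its neuronal beta subunit Kcnmb4 had 10.8 CPM per kb. In CPM their order was the reverse, at 95.5 for Kcnma1 (16976 exon bases) and 35.9 for Kcnmb4 (3324 exon bases). Kcnn2 had 6.72 and the sodium-activated Kcnt2 5.60 CPM per kb. Kcnu1, known from sperm, had 0.737 CPM per kb and Kcnrg, which hinders assembly of Kcna channels, had 0.266 CPM per kb. Where an antisense gene overlaps a member, the member's level may be too high or too low, because the strand setting and annotation of the counting are not given. Reads in the shared part may have been counted for the member or set aside as ambiguous. Such overlap covered 39.6% of the exon bases of Kcna6, 31.1% of Kcnj3, 20.8% of Kcnmb4 (by Kcnmb4os2) and 12.2% of Kcnk2.

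The main contrast in the data was between the conditioned groups and Basal. For the mean of the 5 conditioned groups against Basal, 15 of the 77 members passed the threshold (edgeR quasi-likelihood test, Benjamini-Hochberg adjusted p under 0.05 over 16735 genes), 14 of them lower and 1 higher in the conditioned groups. That is 19.5% of the members, against 11.2% of all tested genes in either direction, of which 6.29% of all genes were lower and 4.89% higher. The median log2 fold change of the 77 members was -0.157, against 0.007 over all tested genes, and 58 of the 77 had a negative value. The lower members included the A-type pore subunits Kcna4 and Kcnd3, the Kcnd partner Kcnip3, the silent subunits Kcnv1, Kcng1 and Kcnf1, the inward rectifiers Kcnj4 and Kcnj9, the leak channels Kcnk13, Kcnk10 and Kcnk9, and Kcna6 and Kcnh8. Kcnk6 was higher. For 4 of the 77 members the conditioned and Basal libraries did not overlap, and the share of all tested genes without overlap is not given here. In bulk tissue, fewer cells of a type and less RNA per cell cannot be told apart.

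**Figure D2:**
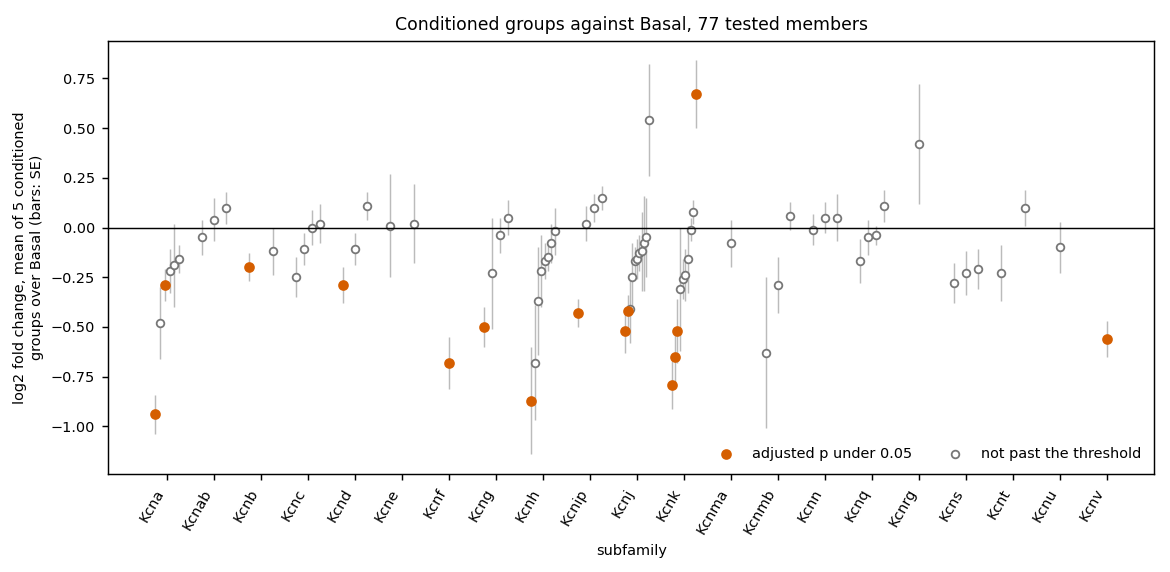
Log2 fold change of each of the 77 tested genes for the mean of the 5 conditioned groups over Basal, by subfamily; bars are SE and filled points have an adjusted p under 0.05. Of the 15 filled points 14 lie below 0, with Kcna4 lowest at -0.94, and Kcnk6 lies at 0.67.

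Kcna4 encodes a fast-inactivating A-type subunit of axons and terminals (ENSMUSG00000042604, chromosome 2, 107290639 to 107298502, plus strand, mm10). It had 24.4, 23.5, 23.3 and 19.4 CPM in the Vehicle libraries, 25.3, 27.1, 27.4, 22 and 30.2 CPM in Cort, 28, 21.7, 19.5, 25.2 and 19.3 CPM in RU486, 23.7, 21.7, 23.4, 26.1 and 22.8 CPM in C108, 27.4, 21.2, 22.5, 23.7 and 27.9 CPM in C118, and 52.4, 29, 54.4 and 48.3 CPM in Basal. Of the 24 conditioned libraries 23 lay below every Basal library, and the exception was Cort 36 at 30.2 CPM. Basal 9, at 29 CPM, stood apart from the other 3 Basal libraries, which had 48.3 CPM or more. The log2 fold change for the mean of the conditioned groups was -0.94 (SE 0.10, edgeR adjusted p = 5.54e-07), and it was -1.11 without Basal 9. On the log2 CPM scale the group means were 4.50 ± 0.15 in Vehicle, 4.72 ± 0.17 in Cort, 4.50 ± 0.23 in RU486, 4.56 ± 0.10 in C108, 4.61 ± 0.17 in C118 and 5.49 ± 0.42 in Basal (SD, n = 4 or 5). Kcna4 made up 7.84% ± 0.965 of the summed per-kb level of the Kcna genes in Vehicle and 13.4% ± 2.70 in Basal (SD, n = 4 each).

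Kcnj4 encodes a strong inward rectifier of neuronal dendrites (ENSMUSG00000044216, chromosome 15, 79483714 to 79505241, minus strand). It had 47.9, 57.5, 51 and 38.1 CPM in Vehicle, 48.2, 57.7, 60.1, 51 and 67 CPM in Cort, 59, 51.5, 65.5, 58.2 and 50.3 CPM in RU486, 62.4, 53.1, 56.8, 60.4 and 56.4 CPM in C108, 57.1, 56.5, 63.5, 48.8 and 63.8 CPM in C118, and 70.4, 68.3, 85.2 and 72.2 CPM in Basal. All 24 conditioned libraries lay below the lowest Basal library, by a narrow margin in Cort 36. The log2 fold change was -0.42 (SE 0.08, edgeR adjusted p = 0.00127).

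The promoters of these 2 genes are shown because both fell in the conditioned groups and because glucocorticoid, cyclic AMP and Egr motifs were searched in them. They run from 250 bases before to 50 bases after the RefSeq start in GRCm38.p6, as Kcna4 at chr2:107290339-107290638 (plus strand) and Kcnj4 at chr15:79505192-79505491 (minus strand), and capitals mark a motif match, in Kcna4 the reverse complement of GCGGGGGCG and in Kcnj4 TGACG.
Kcna4: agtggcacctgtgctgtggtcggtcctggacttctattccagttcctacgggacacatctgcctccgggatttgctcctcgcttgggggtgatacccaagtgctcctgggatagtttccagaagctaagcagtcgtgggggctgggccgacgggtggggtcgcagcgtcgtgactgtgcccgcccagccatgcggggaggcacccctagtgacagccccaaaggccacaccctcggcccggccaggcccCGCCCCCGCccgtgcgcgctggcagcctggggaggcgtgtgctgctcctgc
Kcnj4: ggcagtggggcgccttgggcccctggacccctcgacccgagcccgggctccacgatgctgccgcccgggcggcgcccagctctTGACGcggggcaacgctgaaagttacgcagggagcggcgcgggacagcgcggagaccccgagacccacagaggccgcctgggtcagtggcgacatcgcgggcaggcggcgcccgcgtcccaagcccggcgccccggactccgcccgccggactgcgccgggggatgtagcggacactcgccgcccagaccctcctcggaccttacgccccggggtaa
The Kcna4 window had 67.7% GC and 20 CpG sites and the Kcnj4 window 76% GC and 41 CpG sites, against medians of 52.7% and 7 over all promoters.

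RefSeq promoters were matched for 66 of the 91 members and for 10 of the 14 members that fell. A member counted if any of its promoters matched, whereas the share of all was taken over 32851 single promoters. The paired shares are therefore not of the same unit. On both strands, the full glucocorticoid response element (AGAACA, a spacer NNN, then TGTTCT) was found in 0 of the 66 members and in 0.00913% of all promoters. Its half-site TGTTCT, which the full element contains, was in 11 of 66 (16.7%), against 19% of all promoters, and among the 10 that fell only in Kcnk10. The cyclic AMP response element TGACGTCA was in 0 of 66 and in 1.79% of all promoters. Its half-site TGACG was in 15 of 66 (22.7%), against 20.8% of all, and among those that fell in Kcna6, Kcnh8 and Kcnj4. The Egr site GCGTGGGCG was in 0 of 66 (0.612% of all) and its second form GCGGGGGCG in 4 of 66 (6.06%, against 2.91% of all), among those that fell in Kcna4. A match describes letters in the window and is no evidence of binding.

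Among the silent subunits, Kcnv1, Kcng1 and Kcnf1 were called lower, and the other tested ones were not called. Kcnf and Kcnv had 1 tested gene each, and Kcng had 4, of which 1 was called. Of all tested genes, 6.29% were lower. Kcnv1 (ENSMUSG00000022342, chromosome 15, 45106284 to 45114920, minus strand) had 29.7, 36, 32.5 and 28.4 CPM in Vehicle, 26.6, 34.5, 37.6, 28.7 and 36.9 CPM in Cort, 36.6, 24, 30.2, 29.6 and 37.8 CPM in RU486, 30.9, 31, 28.9, 32.4 and 29.9 CPM in C108, 36.2, 28.1, 29.6, 33.1 and 34 CPM in C118, and 52.3, 40, 53.5 and 42.2 CPM in Basal. No conditioned library reached the lowest Basal library, and the log2 fold change was -0.56 (SE 0.09, edgeR adjusted p = 0.000126). Kcng1 had 19.2 to 30.8 CPM over the conditioned libraries and 26.1 to 37.5 CPM in Basal, with a log2 fold change of -0.50 (SE 0.10, edgeR adjusted p = 0.000908) and overlapping groups. Its sister gene Kcng2 had a log2 fold change of 0.05 (edgeR adjusted p = 0.784). Kcnf1 had 33.6 to 93.9 CPM over the conditioned libraries and 60.7 to 85.2 CPM in Basal (log2 fold change -0.68, SE 0.13, edgeR adjusted p = 0.00111). Only Vehicle 16 and Vehicle 29, at 93.9 and 65.4 CPM, reached the Basal range of Kcnf1. The 3 Kcns genes had log2 fold changes of -0.28 (Kcns2), -0.23 (Kcns1) and -0.21 (Kcns3), none past the threshold.

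**Figure D3:**
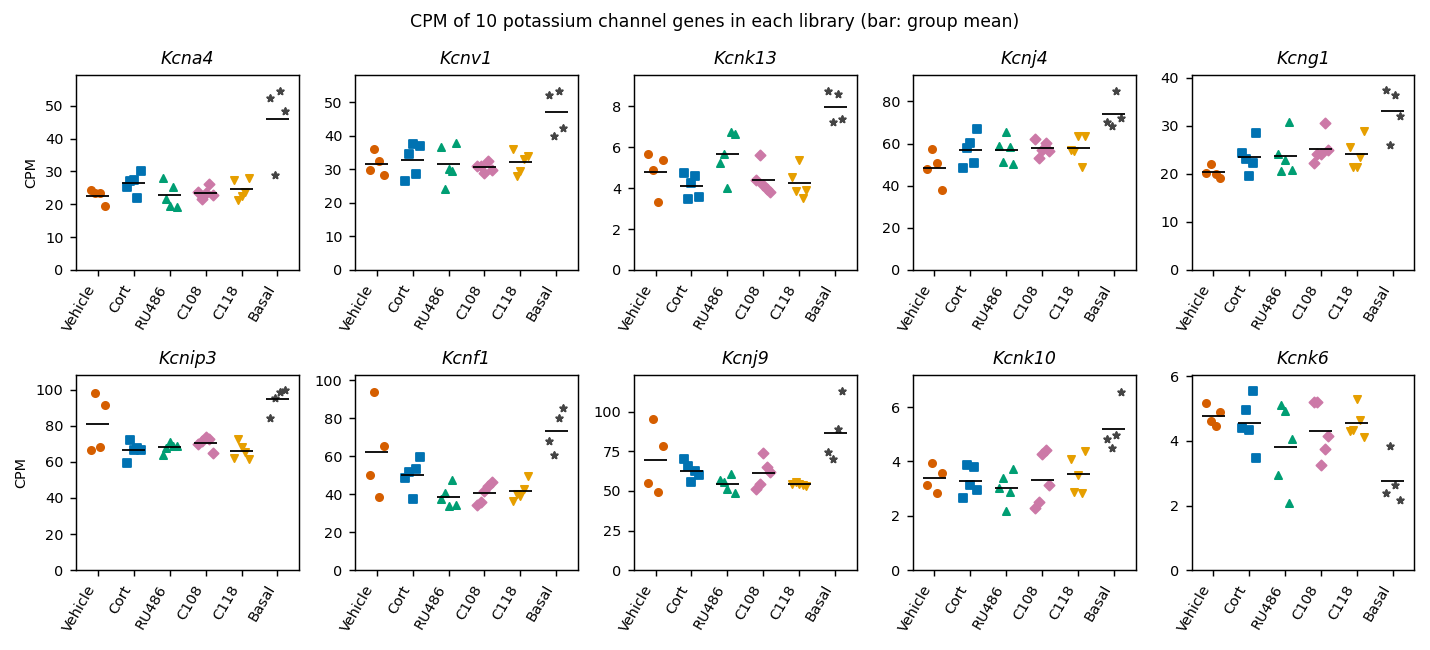
CPM in each library for 10 genes that passed for the conditioned groups against Basal, by group in the order Vehicle, Cort, RU486, C108, C118, Basal; bars are group means and each axis starts at 0. All conditioned libraries of Kcnv1, Kcnk13, Kcnj4 and Kcnk10 lie below the lowest Basal library, and Kcnk6 is the panel in which the Basal mean is the lowest. These are 4 of the 77 tested members, and the share of all tested genes without overlap is not given here.

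The A-type partners differed among themselves. Kcnip3, which binds Kcnd channels and is also known as a calcium-sensitive repressor of transcription, had 66.3, 98.2, 68.1 and 91.2 CPM in Vehicle, 59.4, 72, 66.7, 67.7 and 66.3 CPM in Cort, 64, 67.7, 70.8, 69 and 68.6 CPM in RU486, 69.8, 71.5, 73.8, 72.4 and 64.7 CPM in C108, 62.3, 72.5, 68.3, 65.3 and 61.8 CPM in C118, and 84.5, 95.3, 98.5 and 100 CPM in Basal. Every ligand-treated library was below every Basal library, while Vehicle 16 and Vehicle 29 lay within the Basal range. The log2 fold change for the mean of the conditioned groups was -0.43 (SE 0.07, edgeR adjusted p = 0.000114). Kcnd3 had 63.1 to 113 CPM over the conditioned libraries and 95.2 to 106 CPM in Basal (log2 fold change -0.29, edgeR adjusted p = 0.0246). That call was lost when any 1 of the 4 Basal libraries was left out. The most abundant A-type subunit Kcnd2 (0.11, edgeR adjusted p = 0.353) and its partner Kcnip2 (0.10, edgeR adjusted p = 0.408) did not pass, and neither did Kcnip4 (0.15) or Kcnip1 (0.02). Among the other Kcna genes, Kcna6 had a log2 fold change of -0.29 (SE 0.08, edgeR adjusted p = 0.0122) with 57.8 to 83.1 CPM over the conditioned libraries and 75.5 to 96.4 CPM in Basal, a call that was lost without Basal 1 or Basal 27. Kcna1 (-0.22) and Kcna2 (-0.16) did not pass.

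Of the 11 tested inward rectifiers, 2 were called lower, where 6.29% of all tested genes were. They were Kcnj4, described above, and Kcnj9, a G protein-gated subunit. Kcnj9 had 48.4 to 95.6 CPM over the conditioned libraries and 70.1 to 113 CPM in Basal (log2 fold change -0.52, SE 0.11, edgeR adjusted p = 0.00235), and its adjusted p was 0.0519 without Basal 27. The other G protein-gated subunits, Kcnj3 (-0.17) and Kcnj6 (-0.25), did not pass, and Kcnj5 (0.54, SE 0.28) had under 1 CPM. The astrocytic Kcnj10 had a log2 fold change of -0.16 (edgeR adjusted p = 0.350), with group means of 7.51 to 7.86 log2 CPM in the conditioned groups and 7.83 log2 CPM in Basal.

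Leak channels moved both ways. Kcnk13 (ENSMUSG00000045404, chromosome 12, 99964499 to 100062682, plus strand), best known as a channel of microglia, had 5.68, 4.87, 3.34 and 5.37 CPM in Vehicle, 4.75, 3.49, 4.23, 4.59 and 3.58 CPM in Cort, 5.22, 5.68, 3.99, 6.77 and 6.64 CPM in RU486, 4.38, 5.63, 4.17, 3.95 and 3.81 CPM in C108, 4.53, 3.88, 5.36, 3.54 and 3.91 CPM in C118, and 8.75, 7.23, 8.62 and 7.38 CPM in Basal. The groups did not overlap, and the log2 fold change was -0.79 (SE 0.12, edgeR adjusted p = 8.21e-05). A score over 8 microglial markers, all detected in every library, was -0.48 to 0.35 in the conditioned libraries and 0.02 to 0.16 in Basal, and 1 of the 8 markers was lower in the conditioned groups by the same test. Their summed level was 262 to 430 CPM in the conditioned libraries and 329 to 367 CPM in Basal. The part of microglia in the Kcnk13 result was not tested.

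Kcnk10, a mechanosensitive leak channel, had 2.18 to 4.41 CPM over the conditioned libraries and 4.49 to 6.56 CPM in Basal (log2 fold change -0.65, SE 0.15, edgeR adjusted p = 0.00351). The groups touched without overlapping, and the adjusted p was 0.0511 without Basal 27. Kcnk9, an acid-sensitive leak channel, had 2.55 to 6.13 CPM over the conditioned libraries and 5.59 to 7.36 CPM in Basal (log2 fold change -0.52, edgeR adjusted p = 0.0348), and its call was lost without Basal 1, Basal 14 or Basal 27. Kcnk6, known from macrophages, was higher, with 2.07 to 5.53 CPM over the conditioned libraries and 2.40, 3.83, 2.64 and 2.17 CPM in Basal. Its log2 fold change was 0.67 (SE 0.17, edgeR adjusted p = 0.0114), the groups overlapped, and the call was lost without Basal 1, Basal 14 or Basal 27. The abundant Kcnk1 (0.08) and Kcnk2 (-0.01) did not pass. Outside these classes, Kcnh8 had a log2 fold change of -0.87 (SE 0.27, edgeR adjusted p = 0.0316) at 0.254 to 1.29 CPM over the conditioned libraries and 0.868 to 1.64 CPM in Basal. That call was lost without Basal 1, Basal 9 or Basal 14. The numbers of members that passed among Kcnc, Kcne, Kcnma, Kcnmb, Kcnn, Kcnq, Kcnt, Kcnu, Kcnrg, Kcns and Kcnab were all 0.

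Some region and vessel markers differed in this comparison. By the same test, 4 of 8 endothelial and 4 of 8 pericyte and smooth muscle markers were lower in the conditioned groups. So were 2 of 12 neocortex, 2 of 8 CA1 and 1 of 8 microglial markers. Of 10 dentate markers 2 were lower and 1 was higher, and of 9 CA2 and CA3 markers 1 was lower and 1 higher. Of 8 astrocyte markers 1 was higher. No marker passed among 12 thalamus, 10 interneuron, 8 oligodendrocyte and 8 choroid plexus markers. Of all tested genes, 6.29% were lower and 4.89% higher. The neocortex score was -0.30 to 0.56 in the conditioned libraries and 0.13 to 0.30 in Basal, with a summed marker level of 440 to 549 CPM in the conditioned libraries and 525 to 562 CPM in Basal. Every ligand-treated library had a neocortex score of 0.05 or less, below every Basal library, and only Vehicle 16 and Vehicle 29 reached the Basal scores. A fit with this score as covariate therefore cannot tell the score and the ligand groups well apart, and a call can be lost for that reason alone. A score over 8 endothelial markers, all detected in every library, was -1.26 to 0.51 in the conditioned libraries and 0.31 to 0.83 in Basal, and the pericyte and smooth muscle score was -0.90 to 0.51 in the conditioned libraries and 0.11 to 0.79 in Basal. In a fit with both region scores (thalamus and neocortex) as covariates, 11 members passed for the mean of the conditioned groups, 9 of them among the 15. Kcna4 kept a log2 fold change of -1.02 (edgeR adjusted p = 2.82e-05), Kcnv1 -0.61 (edgeR adjusted p = 0.00171), Kcnk13 -0.72 (edgeR adjusted p = 0.00288) and Kcnj4 -0.42 (edgeR adjusted p = 0.0181). Kcna6, Kcnd3, Kcnh8, Kcnj9 and Kcnk9 were among those that no longer passed, and for Kcnd3 the value was -0.12 (edgeR adjusted p = 0.511). With the endothelial score as covariate, 17 members passed, 13 of them among the 15. For these covariate fits the share of all tested genes that passed is not given here. The part of the other marker lists was not tested.

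Each conditioned group was also set against Basal alone. These 5 comparisons share the 4 Basal libraries, so their values are given side by side. In Vehicle 6 of 77 members passed (7.79%, 1 higher and 5 lower), against 4.11% of all tested genes (1.64% higher and 2.47% lower). In Cort 10 members passed (13%, 1 higher and 9 lower), against 6.27% of all tested genes (2.84% higher and 3.43% lower). In RU486 10 members passed (13%, all lower), against 5.45% of all tested genes (2.61% higher and 2.84% lower). In C108 8 members passed (10.4%, all lower), against 6.04% of all tested genes (2.79% higher and 3.24% lower). In C118 9 members passed (11.7%, 1 higher and 8 lower), against 3.87% of all tested genes (1.74% higher and 2.13% lower).

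Kcna4 and Kcnv1 were lower in all 5 groups, although the Kcnv1 call in C118 was lost without Basal 14 (edgeR adjusted p = 0.0520) and with both region scores as covariates. For Kcna4 the log2 fold changes over Basal were -1.02 in Vehicle, -0.80 in Cort, -1.02 in RU486, -0.97 in C108 and -0.91 in C118, and for Kcnv1 they were -0.57, -0.52, -0.57, -0.62 and -0.55 in the same order. Kcnk13, Kcnip3, Kcnj4 and Kcng1 were lower in 4 groups each. Kcnk13 missed the threshold in RU486 (-0.50, SE 0.16), Kcnip3 in Vehicle (-0.22, SE 0.09), Kcnj4 in C118 (-0.35, SE 0.11) and Kcng1 in C108 (-0.39, SE 0.12). Kcnj4 had its most negative value in Vehicle (-0.61, SE 0.11, edgeR adjusted p = 0.00140), against -0.38 in Cort, -0.38 in RU486 and -0.36 in C108. Several of these calls depended on the fit, where the neocortex score separated the ligand groups from Basal, as given above. With both region scores as covariates, Kcnk13 was no longer called in C108 and C118, Kcnip3 in RU486, C108 and C118, Kcnj4 in Cort, RU486 and C108, and Kcng1 in RU486 and C118. With the endothelial score as covariate, Kcnk13, Kcnip3, Kcnj4, Kcnj9 and Kcnk10 were no longer called in C108. The fits that left out a single library lost the Kcnj4 call in 3 of 9 for Cort, 6 of 9 for RU486 and 7 of 9 for C108, and the Kcng1 call in 2 of 9 for Cort, 5 of 9 for RU486 and 6 of 9 for C118. The Kcnk13 call in Vehicle was lost without Basal 14.

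Kcnf1, Kcnj9 and Kcnk10 were lower in 3 groups each. Kcnf1 passed in RU486 (-0.92), C108 (-0.86) and C118 (-0.82) and had -0.24 (SE 0.18) in Vehicle and -0.55 (SE 0.17) in Cort. Without Vehicle 16 and Vehicle 29, which leaves only Vehicle 3 and Vehicle 23, 9 members passed for Vehicle in place of 6. Kcnf1, Kcnip3, Kcnj9 and Kcnc4 were then called and Kcnk6 was not. The libraries left out held the highest Vehicle values of Kcnf1, Kcnip3, Kcnj9 and Kcnc4, which favours such calls. The share of all tested genes called in that fit is not given here. Kcnj9 passed in RU486 (-0.67), C108 (-0.50) and C118 (-0.67), and Kcnk10 in Cort (-0.66), RU486 (-0.78) and C108 (-0.64). Kcna6 passed in Cort (-0.38) and C118 (-0.36), Kcnh8 in Cort (-1.42), and Kcnd3 (-0.38) and the acid-sensitive leak channel Kcnk3 (-0.51) in RU486. Kcnk6 was higher in Vehicle (0.80), Cort (0.72) and C118 (0.72). The Kcnk6 call was lost in 6 of 8 fits that left out a single library for Vehicle, 5 of 9 for Cort and 8 of 9 for C118. The same fits lost Kcnd3 in RU486 in 8 of 9, Kcnj9 in C108 in 7 of 9 and in C118 in 1 of 9, and Kcna6 in C118 in 7 of 9 and in Cort in 2 of 9. They lost Kcnk10 in 6 of 9 for Cort, 2 of 9 for RU486 and 6 of 9 for C108, Kcnk3 in 3 of 9 and Kcnh8 in 1 of 9. With both region scores as covariates, none of the calls of Kcnj9, Kcnk10, Kcna6, Kcnh8, Kcnd3 and Kcnk3 in single groups was kept, Kcnf1 was kept in RU486 and Kcnk6 in Vehicle. The remaining 63 of the 77 members passed in none of the 5 groups.

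**Figure D4:**
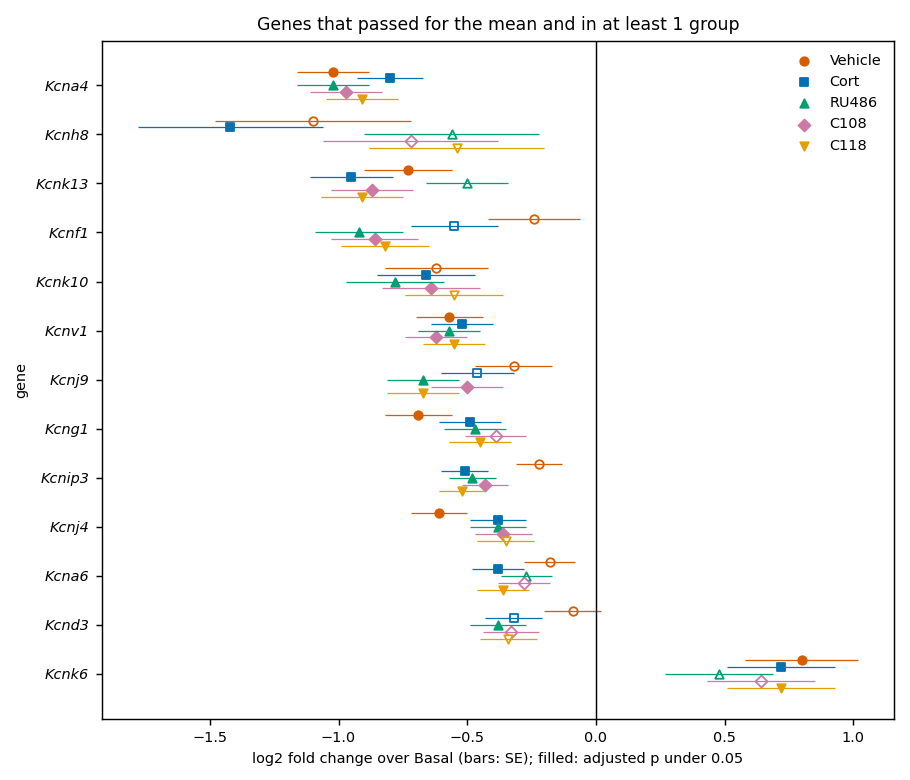
Log2 fold change over Basal (bars: SE) of the 13 genes that passed both for the mean of the conditioned groups and in at least 1 group alone, with 1 marker per conditioned group; filled markers have an adjusted p under 0.05. Kcna4 and Kcnv1 have 5 filled markers each, and Vehicle lies nearest to 0 for Kcnf1, Kcnip3 and Kcnj9. These genes are called in Vehicle once Vehicle 16 and Vehicle 29, which held their highest Vehicle values, are left out.

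A test of any difference among the 6 groups called 10 members (13% of the 77), against 4.73% of all tested genes. They were Kcna4 (edgeR adjusted p = 5.39e-05), Kcnip3, Kcnk13, Kcnf1, Kcnv1, Kcng1, Kcnj4, Kcnj9, Kcnc2 (edgeR adjusted p = 0.0317) and Kcnt1 (edgeR adjusted p = 0.0439). Kcnc2 and Kcnt1, a subunit of fast-spiking neurons and a sodium-activated channel, were the ones that had not passed against Basal. Both stood high in 2 Vehicle libraries, and without Vehicle 16 and Vehicle 29 together neither passed (edgeR adjusted p = 0.766 for Kcnc2 and 0.143 for Kcnt1). Those libraries held the highest values of both genes, so leaving them out makes the difference smaller by itself. The Kcnc2 call was lost in 5 of the 28 fits that left out a single library (Basal 1, Basal 14, Basal 27, Vehicle 16 or Vehicle 29) and the Kcnt1 call in 19. After adjustment for both region scores, 3 members passed, Kcna4, Kcnk13 and Kcnv1.

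Each ligand was compared with Vehicle to ask what it changed after conditioning. No member passed in any of the 4 comparisons, which share the 4 Vehicle libraries. Among all genes the share that passed was 0.00598% for Cort, 0% for RU486, 0.215% for C108 and 0% for C118. At an unadjusted p under 0.05 there were 11 members for Cort (14.3%, against 11.6% of all genes), 19 for RU486 (24.7%, against 8.16%), 21 for C108 (27.3%, against 17.4%) and 16 for C118 (20.8%, against 8.01%). DESeq2 called 2 members for Cort (Kcng2, Kcnip2), 3 for RU486 (Kcnc2, Kcnf1, Kcnt1), 5 for C108 (Kcnab2, Kcnc2, Kcnf1, Kcnip2, Kcnt1) and 1 for C118 (Kcnc2). Without Vehicle 23, edgeR called 6, 7, 11 and 8 members in the same order, and the Vehicle libraries left then included Vehicle 16 and Vehicle 29. The shares of all tested genes called by DESeq2 and without Vehicle 23 are not given here, so these counts have no background beside them.

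Kcnc2 was among the 3 smallest p-values in all 4 comparisons. It had 112, 115, 90.8, 105 and 97.1 CPM in Cort, 90.7, 93.9, 87.6, 109 and 107 CPM in RU486, 98.5, 102, 102, 89.8 and 121 CPM in C108, 93 to 102 CPM in 4 of the 5 C118 libraries and slightly more in C118 33, and 128, 175, 97.6 and 155 CPM in Vehicle. Vehicle 16 and Vehicle 29, with 175 and 155 CPM, stood highest, Vehicle 3 was also above every ligand-treated library, and Vehicle 23 lay among them. The log2 fold changes were -0.42 for Cort, -0.51 for RU486, -0.43 for C108 and -0.47 for C118 (SE 0.11 each, edgeR adjusted p = 0.156, 0.111, 0.0738 and 0.147). Without Vehicle 16 and Vehicle 29 they were -0.12, -0.21, -0.14 and -0.17, with only Vehicle 3 and Vehicle 23 left in Vehicle. Leaving out the highest values makes the difference smaller by itself, so these values do not show where it came from.

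Kcnt1 had 18.4 to 28 CPM in RU486 and 31.2, 47.2, 21.6 and 47 CPM in Vehicle (log2 fold change -0.71, SE 0.17, edgeR adjusted p = 0.177), and 21.8 to 28.4 CPM in C118 (-0.59, edgeR adjusted p = 0.248). Kcnf1 had 33.6 to 47.5 CPM in RU486, 34.3 to 46.2 CPM in C108, 36.6 to 49.6 CPM in C118 and 50.2, 93.9, 38.6 and 65.4 CPM in Vehicle. Its log2 fold changes were -0.68, -0.62 and -0.58 for these 3 ligands, with edgeR adjusted p-values of 0.202, 0.0987 and 0.286. For RU486, the values without Vehicle 16 and Vehicle 29 were -0.23 for Kcnt1 and -0.20 for Kcnf1. Both libraries held the highest Vehicle levels of these genes, so leaving them out makes the difference smaller by itself. Vehicle 16 and Vehicle 29 are the Vehicle libraries with the highest neocortex scores, at 0.56 and 0.45, against -0.30 to 0.05 over the 20 ligand-treated libraries. Vehicle 16 also had the lowest CA1 score of all libraries, and Vehicle 29 the lowest CA2 and CA3 score and the lowest dentate score, as given above. The part of those markers in these values was not tested.

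Kcnip2 went the other way, with 253 to 288 CPM in Cort, 248 to 276 CPM in C108 and 238, 207, 256 and 165 CPM in Vehicle. Its log2 fold changes were 0.34 for Cort (SE 0.08, edgeR adjusted p = 0.150) and 0.30 for C108 (SE 0.08, edgeR adjusted p = 0.0981). Vehicle 29 and Vehicle 16 held the 2 lowest values, and without them the log2 fold changes were 0.15 and 0.11. Kcng2 had 21.4 to 27.6 CPM in Cort and 19.8, 17.4, 23.6 and 15.7 CPM in Vehicle (0.42, SE 0.11, edgeR adjusted p = 0.152). With both region scores as covariates, the count of members that passed was again 0 for each of the 4 ligands.

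Kcna4 and Kcnj4, which fell in Vehicle, showed no called difference between a ligand and Vehicle. For Kcna4 the log2 fold changes were 0.22 for Cort (edgeR adjusted p = 0.540), 0.00 for RU486 (0.997), 0.06 for C108 (0.853) and 0.12 for C118 (0.862). For Kcnj4 they were 0.22 for Cort (edgeR adjusted p = 0.418), 0.23 for RU486 (0.592), 0.25 for C108 (0.235) and 0.25 for C118 (0.554).

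**Figure D5:**
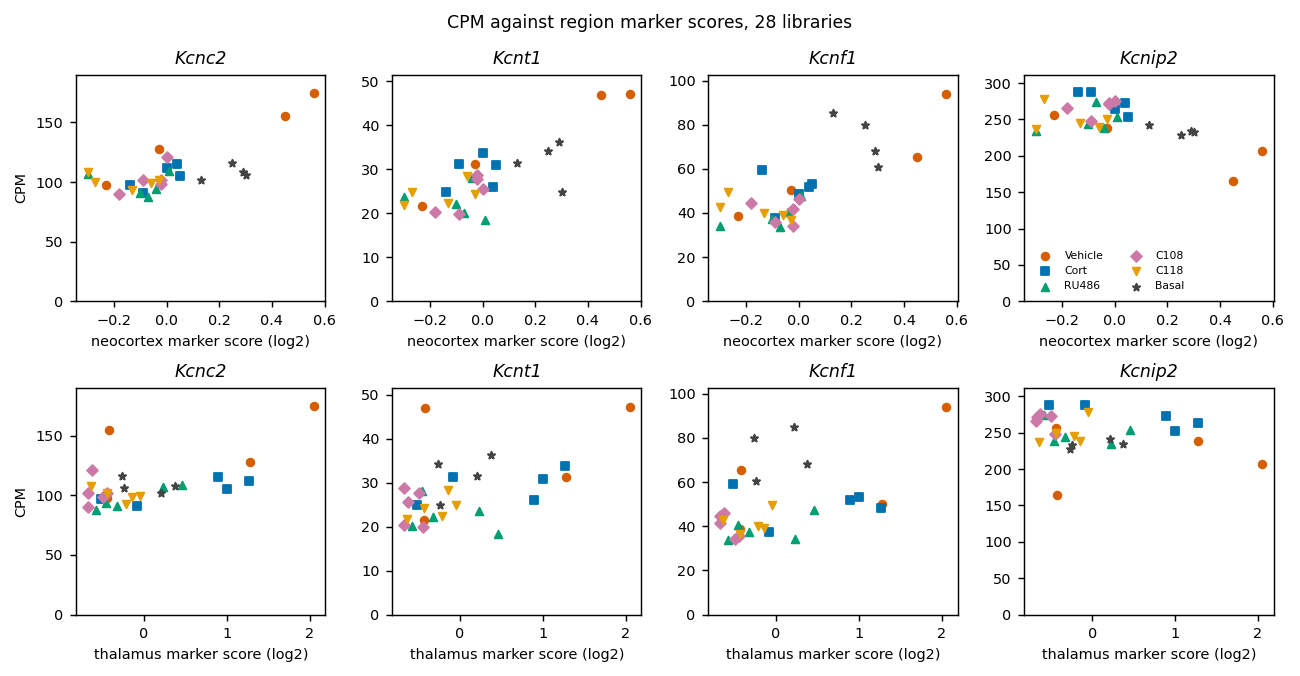
CPM of Kcnc2, Kcnt1, Kcnf1 and Kcnip2 (each axis from 0) against the neocortex score (top) and the thalamus score (bottom) in 28 libraries, colored by group. Vehicle 16 and Vehicle 29 lie at the right of the top panels, high for Kcnc2 and Kcnt1 and low for Kcnip2.

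The 4 ligands were compared with each other in 6 pairs, with p-values adjusted over all tested genes within a pair, and the labels state no doses. No member passed in any pair, also not with any 1 library left out. At an unadjusted p under 0.05 there were 7 members for Cort against RU486, 4 for Cort against C108, 4 for Cort against C118, 7 for C108 against RU486, 1 for C118 against RU486 and 2 for C108 against C118. These are 9.09%, 5.19%, 5.19%, 9.09%, 1.3% and 2.6% of the 77, against 5.34%, 4.88%, 4.26%, 5.74%, 1.83% and 2.4% of all tested genes in the same order. Among all genes 0.0538% passed for Cort against RU486 (0.0478% higher and 0.00598% lower) and 0% in the other 5 pairs. A p that misses the threshold does not show that the ligands act alike, and the intervals give what the data allow. For Kcna4 the 95% interval of the log2 difference was -0.05 to 0.48 for Cort against RU486, -0.22 to 0.32 for C108 against RU486 and -0.33 to 0.21 for C108 against C118. For Kcnj4 it was -0.21 to 0.20, -0.18 to 0.23 and -0.21 to 0.20 for the same pairs.

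Of the 18 smallest p-values, 3 in each pair, 5 belonged to genes under 1 CPM. Kcnj5, a G protein-gated subunit known from the heart, had 0.460 to 0.691 CPM in Cort and 0.109 to 0.383 CPM in C108 (log2 difference 1.08, interval 0.44 to 1.72, edgeR adjusted p = 0.698). Kcnk5 had 0.152 to 0.383 CPM in C108 and 0.425 to 0.737 CPM in RU486 (-1.27, interval -2.08 to -0.46, edgeR adjusted p = 0.841). In both cases the groups did not overlap, at low counts. Of the 77 members, 2 did not overlap in Cort against C108 (Kcnj5 and Kcnh4, both under 1 CPM). There was 1 such member in Cort against C118, 1 in C108 against RU486 and 0 in the other pairs. The share of all tested genes without overlap is not given here, so these separations cannot be weighed against it. Chosen after its values were seen, the more abundant Kcnk1 had 127 to 134 CPM in Cort and 113 to 119 CPM in C118, also without overlap (0.17, interval 0.02 to 0.32, edgeR adjusted p = 0.999). The microglial Kcnk13 had 3.49 to 4.75 CPM in Cort and 3.99 to 6.77 CPM in RU486 (-0.46, interval -0.78 to -0.13, edgeR adjusted p = 0.628), and for C118 against RU486 its value was -0.42 (interval -0.74 to -0.09, edgeR adjusted p = 1).

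Of 24 genes that encode partners or close relatives of these channels, 22 were tested. For the mean of the conditioned groups 2 of the 22 passed, both lower, where 11.2% of all tested genes passed. Lrrc55, a gamma subunit of the large-conductance calcium-activated channel, had a log2 fold change of -0.63 (SE 0.13, edgeR adjusted p = 0.00222). Amigo1, an adhesion protein of neurons that accompanies potassium channels in the membrane, had -0.15 (SE 0.05, edgeR adjusted p = 0.0346). The median over the 22 was -0.04, against 0.007 over all tested genes. Dpp10, an auxiliary subunit of Kcnd channels, was higher in Vehicle than in Basal (0.71, edgeR adjusted p = 0.0422) and lower in C108 than in Vehicle (-0.89, edgeR adjusted p = 0.0404). It had 42.8, 96.9, 36.1 and 89.8 CPM in Vehicle, and the 2 high values were those of Vehicle 16 and Vehicle 29.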

How the data were processed

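RNA of dorsal hippocampus was sequenced in 28 libraries, as stranded libraries read from both ends per the labels. The deposited values are raw counts, 1 row for each Ensembl gene. The submitters' processing notes name HTSeq 0.6.1, FastQC, MultiQC and the mm10 build. The aligner, annotation release and strand setting of the authors' counts are not given here. The 5 summary lines at the end of the table, which name no gene, were left out; they held 12.6% to 19.7% of each library's table total. No 2 libraries of a group were as alike as counting noise alone would make them (lowest chi-square per degree of freedom 5.94).

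Genes passed the filterByExpr function of edgeR 4.0.16 (minimum count 10, minimum total 15), which left 16735 of 50686. CPM use TMM-scaled library sizes, and log2 CPM a prior count of 2. At 16244993 to 20295147 counts per library, the common biological coefficient of variation was 0.133. A single quasi-likelihood fit over all 6 groups (R 4.3.3, 22 residual degrees of freedom) gave all 17 tests, which were two-sided with Benjamini-Hochberg adjustment over all tested genes. The mean of the conditioned groups is the average of the 5 group values. SE was taken as the absolute log2 fold change over the square root of F. The fit was tested on simulated data. Positions come from GENCODE M21 (mm10) and promoters from RefSeq (GRCm38.p6).

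Members passing a test were named, with the 3 smallest p-values where none passed, the most abundant member of each subfamily, Kcna4 and Kcnj4 always, and partner genes that passed. A few genes that this rule names are not reported here. The members and lists were chosen with earlier results of these data known. Alternatives were another normalization, other filters, DESeq2 1.42.0, limma 3.58.1 (voom), marker scores as covariates, the compared groups alone, and leaving out libraries. The library number and the endothelial score as covariates were chosen after seeing the data.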

Additional observations from a re-analysis of the deposited data

Results flagged for a closer look

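Among 30 named genes in 6 groups (180 sets of 4 or 5 libraries), 6 sets had a library far from the others by Dixon's criterion. That is fewer than the 1 in 20 that chance gives. Kcna6 was 76.8 CPM in Cort 36, against 61.9 to 65.7 CPM in the other Cort libraries. Kcnd1 was 9.05 CPM in Vehicle 29, against 8.64 to 8.71 CPM, and only just met the criterion. Kcng4 was 14.1 CPM in C108 21, against 11.5 to 12.2 CPM. Kcnj11, the pore of the ATP-sensitive channel, was 51.6 CPM in C118 38, against 40.8 to 42.7 CPM. Kcnk3 was lowest in Basal 1 at 6.60 CPM, against 8.05 to 8.29 CPM, and Kcnq5 was lowest in Basal 9 at 67.5 CPM, against 76.3 to 76.6 CPM.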

How the results depend on the processing

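The numbers of members that passed against Basal (Vehicle 6, Cort 10, RU486 10, C108 8, C118 9) became 10, 5, 4, 2 and 1 with both region scores (thalamus, neocortex) as covariates, and with the endothelial score 10 for Vehicle and 3 for C108. The test among 6 groups (10) gave 16 with DESeq2 and 3 with the region scores, and the ligands against Vehicle (0 each) gave 2, 3, 5 and 1 with DESeq2 for Cort, RU486, C108 and C118. With 1 library left out, the counts ranged from 4 to 9 for Vehicle, 6 to 11 for Cort, 6 to 12 for RU486, 5 to 12 for C108 and 5 to 10 for C118 against Basal, from 8 to 16 for the mean of the conditioned groups, and from 4 to 19 among 6 groups. Against Vehicle they ranged from 0 to 6, 0 to 7, 0 to 11 and 0 to 8, with the higher values without Vehicle 23. The mean of the conditioned groups gave 9 without Basal 1 and 8 without Basal 27, and the test among 6 groups 5 without Basal 1, 4 without Basal 14, 5 without Basal 27 and 19 without Vehicle 23. Cort gave 6 without Basal 1 or Basal 14, RU486 6 without Basal 14, Basal 27 or RU486 19, C108 5 without Basal 1, Basal 14, Basal 27 or C108 21, and C118 5 without Basal 14 or Basal 27. The cause was not tested. Shares of all tested genes are not given for these refits. In the fit with the region scores, the neocortex score separated the ligand groups from Basal, as given above. Kcna4 in C108 against Vehicle (0.06) turned to -0.02 without Vehicle 16 and Vehicle 29 and ranged from -0.01 to 0.09 with 1 library left out (-0.01 without Vehicle 29). Of 2428 repeats over 107 pairs of gene and comparison, 2169 kept direction and call, 233 lost the call, 24 gained it and 2 turned round. Depth limits the 8 tested members under 1 CPM. No paired analysis was possible because each library has its own number and no number recurs across groups.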
